A study of Arabidopsis thaliana with 4 samples.

Results

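FUL binding sites outside the coding spans and upstream regions of coding genes were collected from the deposited site list of a ChIP-seq experiment on FUL-GFP. A far site is a listed site, of any score, whose maximum lies in no start-to-stop-codon span of a protein-coding gene and not within 3000 bp upstream of any protein-coding start codon. The rule counts upstream distance only. A far site past the stop codon of a short gene can therefore lie close to that gene's own start codon. The sites of 31.29 past ERF4 and 23.21 past UBQ11 lay 1229 bp and 1245 bp from the nearest start codon. Of the 2831 listed sites, 365 met this rule. Of these, 7 lay in the ribosomal RNA cluster of chromosome 3 and are described separately at the end, so that 358 far sites remained among 2816 sites outside the cluster, or 12.7% (Wilson 95% interval 11.5 to 14.0). The other 2458 sites outside the cluster are called the other sites. Chromatin was taken from pistils and siliques of floral stages 12 to 16, in plants of mixed Col/Ler background that carried pFUL:FUL-GFP in the ful-1 mutant, so the tagged protein was expressed from the FUL promoter in a mutant of the endogenous gene. There were 2 ChIP samples, precipitated with a GFP antibody, and 2 input samples of the same genotype. The list gives 1 score per site, in which the authors combined both replicates against the input. It holds no error and no reads per library, so no spread between replicates could be computed, the depth is unknown, and no expression value was there to check the tissue. All intervals below cover the counting of sites, windows or bases only, and no test was made on the scores.

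FUL (FRUITFULL) is a MADS-domain transcription factor that patterns the valves of the Arabidopsis fruit and also acts in flowering and stem growth. MADS-domain proteins bind as dimers to CArG boxes, in which a run of A and T bases is held between CC and GG. Plant transcription factor sites are usually assigned to the gene whose start codon lies downstream, and sites past the stop codon, between convergent genes or in non-coding RNA genes have no such gene close by. The study itself also took as putative targets genes with a peak up to 1000 bp past the stop codon.

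The sequences that carry the results are the CArG boxes of the far sites with scores of at least 5.6, a limit explained with the scores below. There were 9 such sites with an exact box within 100 bp of the maximum. Of these, 8 are shown from the forward strand of the RefSeq TAIR10.1 genome with 20 bases to each side, and the capitals mark the box. Each is named by a neighbouring coding gene.
PUB9 site (chr3:2350309-2350358): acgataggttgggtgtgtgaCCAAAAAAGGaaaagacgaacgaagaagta
HB40 site (chr4:17319876-17319925): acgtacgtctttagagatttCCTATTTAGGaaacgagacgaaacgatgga
IQD25 site (chr4:14374307-14374356): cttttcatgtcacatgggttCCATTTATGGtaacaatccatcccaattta
LOG8 site (chr5:3858026-3858075): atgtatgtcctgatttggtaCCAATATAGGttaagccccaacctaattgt
AT1G72500 site (chr1:27294476-27294525): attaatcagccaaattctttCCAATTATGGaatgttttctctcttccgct
ERF4 distal site (chr3:5125375-5125424): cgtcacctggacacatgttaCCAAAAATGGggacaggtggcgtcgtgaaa
RAP2.7 distal site (chr2:12234329-12234378): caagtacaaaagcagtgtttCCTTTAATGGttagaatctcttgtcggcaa
RAP2.7 nearer site (chr2:12232842-12232891): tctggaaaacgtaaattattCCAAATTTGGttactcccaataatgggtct

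Most high far sites had no CArG box, and 2 other motifs were more common among them. These were CACGTG, the G-box bound by bHLH and bZIP factors, and GGNCCC, the core of sites bound by TCP factors. Both are also more common in the DNA that meets the far rule. Of its consecutive 201 bp windows, 1.20% held a CArG box, 1.76% CACGTG and 5.22% GGNCCC. The raw shares therefore do not rank the motifs against their background. For the sites among the 17 highest that held either motif, the match closest to the maximum is shown in the same way, with the motif in capitals.
ARF10 site, CACGTG (chr2:12108252-12108297): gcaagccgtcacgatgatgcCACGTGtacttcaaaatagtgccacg
DFL1 site, CACGTG (chr5:22129505-22129550): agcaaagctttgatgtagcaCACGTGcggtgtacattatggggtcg
RD22 site, GGNCCC (chr5:8920859-8920904): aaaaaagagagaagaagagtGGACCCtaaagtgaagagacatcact
HB40 site, GGNCCC (chr4:17319980-17320025): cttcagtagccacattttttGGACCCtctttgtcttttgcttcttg
ASPG1 site, GGNCCC (chr3:6347274-6347319): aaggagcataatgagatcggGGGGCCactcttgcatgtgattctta
ERF4 proximal site, GGNCCC (chr3:5122733-5122778): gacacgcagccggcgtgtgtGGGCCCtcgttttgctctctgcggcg
LOG8 site, GGNCCC (chr5:3857898-3857943): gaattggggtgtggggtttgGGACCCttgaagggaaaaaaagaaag
The highest far site of all held none of the 3 motifs within 100 bp, and the 101 bases around its maximum are given for comparison.
IMS2 site, no motif (chr5:7722090-7722190): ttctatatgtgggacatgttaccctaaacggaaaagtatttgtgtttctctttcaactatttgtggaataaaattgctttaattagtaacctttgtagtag

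The highest far site had a score of 40.02 and lay on chromosome 5, 506 bp past the stop codon of IMS2 (AT5G23020), a methylthioalkylmalate synthase of glucosinolate synthesis. The start codon of TET12, a tetraspanin gene, lay 4679 bp downstream of it. The second, with 37.78, lay on chromosome 3 over the long non-coding RNA genes AT3G01975 and AT3G01985, 4536 bp upstream of PUB9, a gene of a U-box E3 ubiquitin ligase, and its CArG box was centred 14 bp from the maximum. The third, with 35.58, lay in the 3′ UTR of AT1G35780 on chromosome 1, 424 bp past its stop codon. The highest of the other sites outside the ribosomal RNA cluster scored 285.25, so the top of the far sites was well below the top of the list.

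By the words in the description of the nearest coding gene, 7.20% (3.83 to 13.1) of the 125 far sites with scores of at least 5.6 lay next to a hormone gene, against 8.78% (6.91 to 11.1) of the other sites at that limit, and these intervals overlapped. A site of 32.39 lay over the long non-coding RNA gene AT5G04025, 4206 bp upstream of RD22 (AT5G25610), which responds to drought and abscisic acid, and 14422 bp past the stop codon of YUC6, a flavin monooxygenase gene of auxin synthesis. A site of 31.29 on chromosome 2 lay 6013 bp upstream of ARF10, an auxin response factor gene, and 2146 bp past the stop codon of GATA13. Another site of 31.29 lay 561 bp past the stop codon of ERF4 (AT3G15210), a repressor of the ethylene response factor family. A site of 23.21 on chromosome 5 lay between the convergent genes FQR1 and DFL1, 1841 bp past the stop codon of DFL1, which encodes an auxin-conjugating enzyme. The site of 19.45 near LOG8, a cytokinin-activating enzyme gene, lay 1171 bp past its stop codon and 866 bp past that of AT5G11960, and another of 19.45 lay 4092 bp upstream of ILR2 and 1820 bp past ASPG1.

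Transcription factor genes with a far site upstream included HB40, RGL1 and KNAT3. The site at HB40, a homeodomain leucine zipper gene that acts in axillary buds, scored 23.52 and lay 3636 bp upstream of its start codon. It held both a CArG box, centred 50 bp from the maximum, and GGNCCC. The site of 23.21 at RGL1, a DELLA repressor gene of the gibberellin pathway, lay 4189 bp upstream. A site of 25.16 lay 9333 bp upstream of KNAT3, a KNOX homeobox gene, over the long non-coding RNA gene AT5G03935, and its nearest coding gene was AT5G25210, whose stop codon lay 1195 bp away. Another of 25.16 lay between the divergent genes BLH1, 8589 bp upstream of its start codon, and EDA12, 4449 bp upstream. At RAP2.7, also known as TOE1, an AP2-type repressor of flowering, sites of 6.81 and 8.14 lay 4571 bp and 6097 bp upstream, and both held a CArG box. The DNA repair gene RAD51B, on their other side, was nearer, with its stop codon at 4054 bp and 2528 bp. The remaining sites among the 17 highest were 23.21 over the transcribed pseudogene AT4G05049, 556 bp past the stop codon of the polyubiquitin gene UBQ11, 23.21 between ADS1 and IQD25 with a CArG box 5.5 bp from the maximum, 19.85 over the long non-coding RNA gene AT4G05605 near the Pumilio gene PUM11, and 19.45 in a UTR intron of the trehalose-phosphate phosphatase gene TPPI.

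The scores of the far sites ran from 3.0 to 40.02, with a quartile at 3.4, a median of 4.43 and a quartile at 8.14. The order-statistic 95% interval of the median was 4.43 to 4.69. The median of the other sites was also 4.43, with quartiles of 3.4 and 6.81. Scores take few values at the low end, and 101 far sites stood at exactly 3.40 and 55 at exactly 4.43. A score limit of 5.6 was used for the stricter part of the list. It is the lowest score in the study's supplementary table of sites, which the authors called significant by a false discovery rate limit. The 233 far sites below 5.6 thus score lower than every site in that table. Of the 358 far sites, 125 reached it, or 34.9% (Wilson 30.2 to 40.0), against 29.5% of all sites outside the cluster and 28.7% (27.0 to 30.5) of the other sites. The share at the limit was therefore somewhat higher in far sites, and the intervals overlapped by less than 1 percentage point. Between the quartiles of the scores of the whole list, from the lowest class to the top class, far sites were 12.9%, 10.7%, 10.5% and 16.8% of the sites. They were 17.4% (13.7 to 21.9) of the 327 sites with at least 10 and 13.4% (8.00 to 21.6) of the 97 with at least 20. Their share was thus higher above the upper quartile than in the middle classes, and the intervals at the highest scores were wide. Between chromosomes it varied from 10.7% on chromosome 3 to 14.9% on chromosome 5.

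Sites on both sides of the 3000 bp limit are given as a description. The 48 far sites that lay 3001 to 3500 bp upstream of the nearest start codon had a median score of 3.6 and a highest score of 17.65, with 13 at or above 5.6. The 63 other sites that lay 2501 to 3000 bp upstream had a median of 4.43 and a highest score of 85.35, with 20 at or above 5.6. The number of far sites itself depends on the rule. It was 207 with an upstream limit of 5000 bp, and 202 when genes of all types, and not only protein-coding genes, set the limit.

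**Figure D1:**
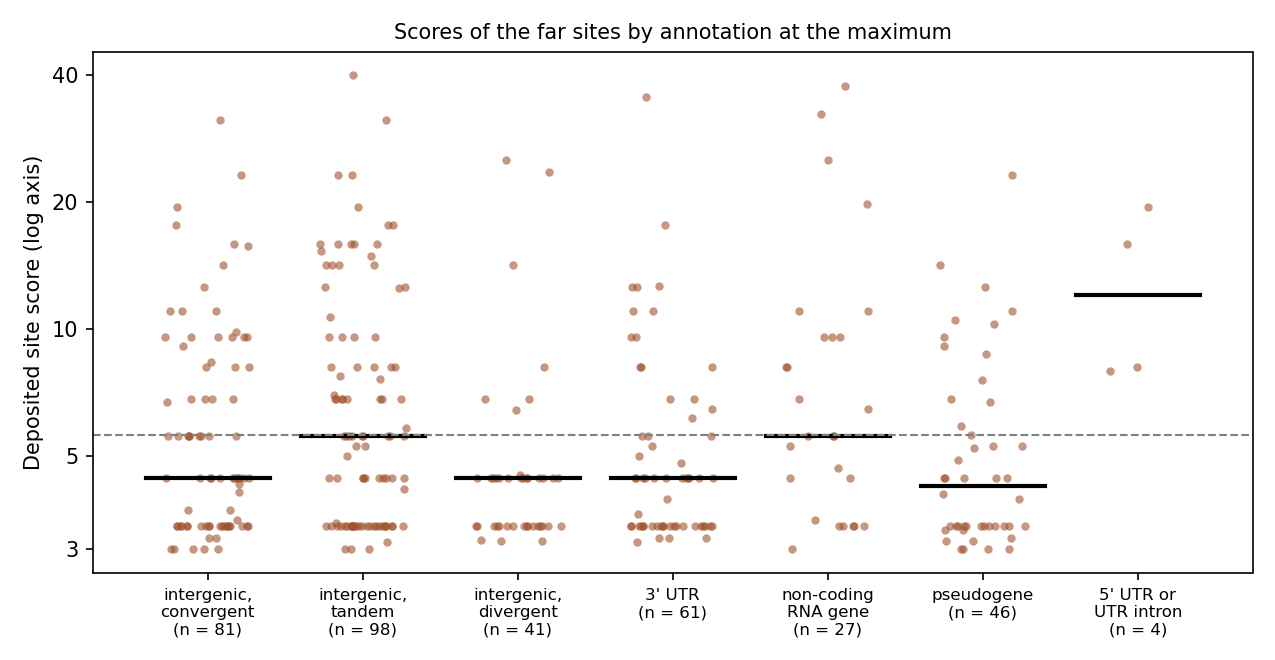
Deposited scores of the 358 far sites (log axis) by the annotation at the maximum; each point is a site, black lines are medians and the dashed line is the score limit of 5.6. The medians of intergenic sites between tandem genes and of sites in non-coding RNA genes lie at 5.57, and those of the convergent, divergent and 3′ UTR sites at 4.43.

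By annotation at the maximum, 220 of the far sites were intergenic, 61 lay in a 3′ UTR, 46 in a pseudogene, 27 in a non-coding RNA gene, 3 in a UTR intron and 1 in a 5′ UTR. At the limit of 5.6 these were 78, 16, 14, 13, 3 and 1. The pseudogene class follows RefSeq, and it includes loci that the study's site table calls transposable element genes, such as AT1G10160 and AT1G44060. The single 5′ UTR site, at AT1G67900, scored 7.97. Among the intergenic sites 81 lay between convergent genes, whose 3′ ends both face the site, 98 between tandem genes and 41 between divergent genes. Of these, 28, 43 and 7 reached the limit. The nearest coding gene had its 3′ end toward the site in 279 of the 358 cases, or 77.9%, and in 105 of the 125 cases at the limit, or 84.0%. This share follows in part from the rule, which leaves out the first 3000 bp upstream of every coding gene.

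Far DNA, that is every base that meets the same rule, made up 28.7 Mb or 24.1% of the 5 chromosomes, and held 12.7% of the sites. There were 12.5 far sites per Mb (exact Poisson 95% interval 11.2 to 13.8), against 27.2 (26.1 to 28.3) in all other DNA. At the limit of 5.6 the densities were 4.35 (3.62 to 5.19) and 7.81 (7.24 to 8.41). The density was lowest in gene-poor DNA, defined as bases with fewer than 10 protein-coding genes in the 100 kb around them. It made up 46.5% of far DNA and held 45 far sites, or 3.37 per Mb (2.46 to 4.51). Gene-rich far DNA held the other 313, or 20.4 per Mb (18.2 to 22.8), still below the 27.8 (26.7 to 28.9) of gene-rich other DNA. At the limit of 5.6, however, the density of far sites in gene-rich far DNA was 7.42 per Mb (6.12 to 8.91), against 7.96 (7.38 to 8.57) in gene-rich other DNA, and these intervals overlapped.

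**Figure D2:**
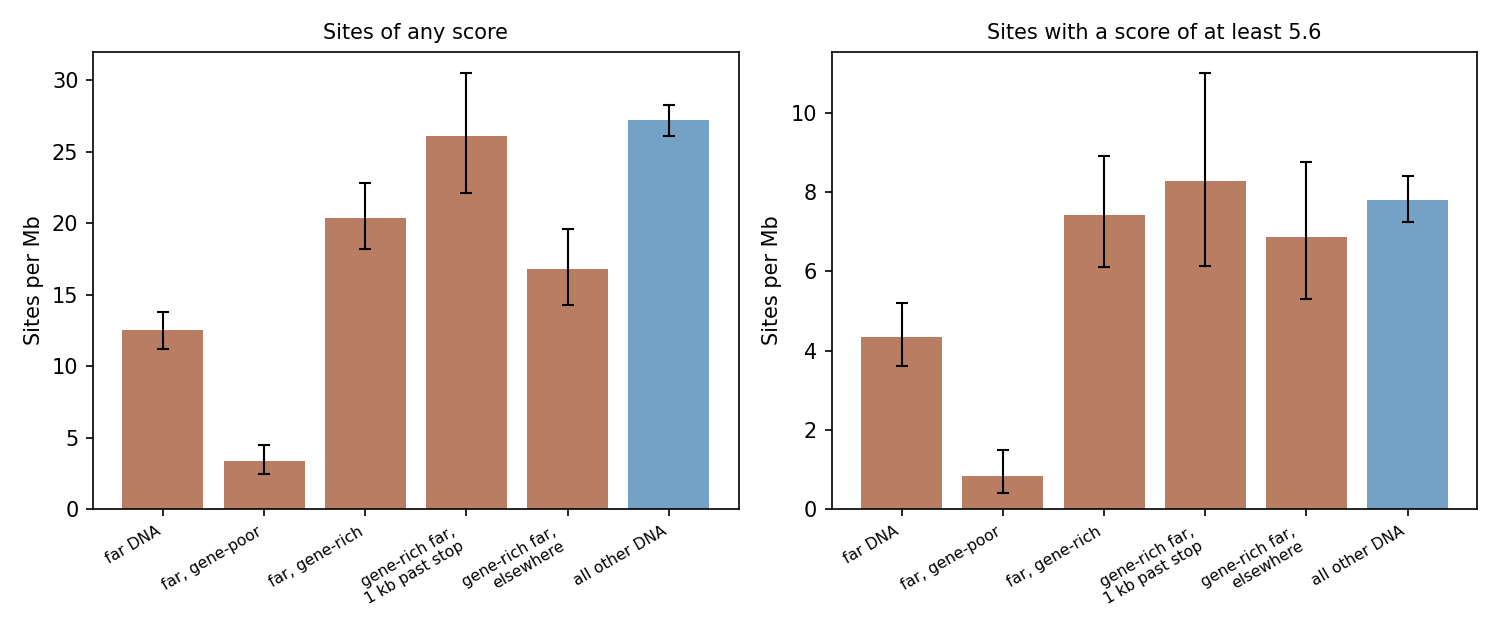
Sites per Mb in far DNA, its parts and all other DNA, for sites of any score (left) and of at least 5.6 (right); bars start at 0 and error bars are exact Poisson 95% intervals. Gene-poor far DNA stands lowest in both panels, at 3.37 and 0.824 per Mb, and gene-rich far DNA reaches 20.4 and 7.42.

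Within gene-rich far DNA the density varied with the distance past the nearest stop codon, with the highest values from 250 to 1000 bp. Between 250 and 500 bp past the nearest stop codon there were 33.8 far sites per Mb (25.2 to 44.5), between 500 and 1000 bp 33.6 (26.0 to 42.7), and between 1000 and 2000 bp 26.9 (20.6 to 34.4). The first 250 bp held 15.2 per Mb (10.7 to 20.9). From 2000 to 4000 bp the density was 15.7 (11.0 to 21.7), and beyond 4000 bp 12.5 (9.51 to 16.0). The intervals of the 250 to 1000 bp classes did not overlap those of the first 250 bp or of the classes beyond 2000 bp. For sites of at least 5.6 the highest value stood farther out, although neighbouring classes overlapped, with 14.1 per Mb (9.69 to 19.8) between 1000 and 2000 bp against 4.92 (2.54 to 8.60) in the first 250 bp and 3.32 (1.90 to 5.40) beyond 4000 bp. The median score in the 1000 to 2000 bp class, over its 63 sites, was 6.81.

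The distance to the nearest start codon that lay downstream made less difference. From 3000 to 4000 bp upstream there were 22.0 sites per Mb (17.7 to 27.2), from 4000 to 5000 bp 22.0 (16.8 to 28.4) and from 5000 to 7000 bp 25.0 (20.0 to 31.0). Beyond 10000 bp the density was 13.5 (9.53 to 18.7). In total 157 of the 358 far sites, or 43.9% (38.8 to 49.0), lay within 1000 bp past a stop codon, in DNA that made up 22.1% of far DNA. That comparison includes gene-poor DNA. In gene-rich far DNA the density was 26.1 per Mb (22.1 to 30.5) within 1000 bp past a stop codon and 16.8 (14.3 to 19.6) elsewhere. For scores of at least 5.6 these were 8.29 (6.13 to 11.0) and 6.87 (5.31 to 8.76), and the intervals overlapped. Orientation alone showed less. In gene-rich intergenic far DNA the density was 23.3 (18.4 to 29.2) between convergent, 19.2 (15.4 to 23.6) between tandem and 21.1 (14.4 to 29.7) between divergent genes. For at least 5.6 it was 8.58 (5.70 to 12.4), 7.98 (5.62 to 11.0) and 4.61 (1.85 to 9.49), and all these intervals overlapped.

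**Figure D3:**
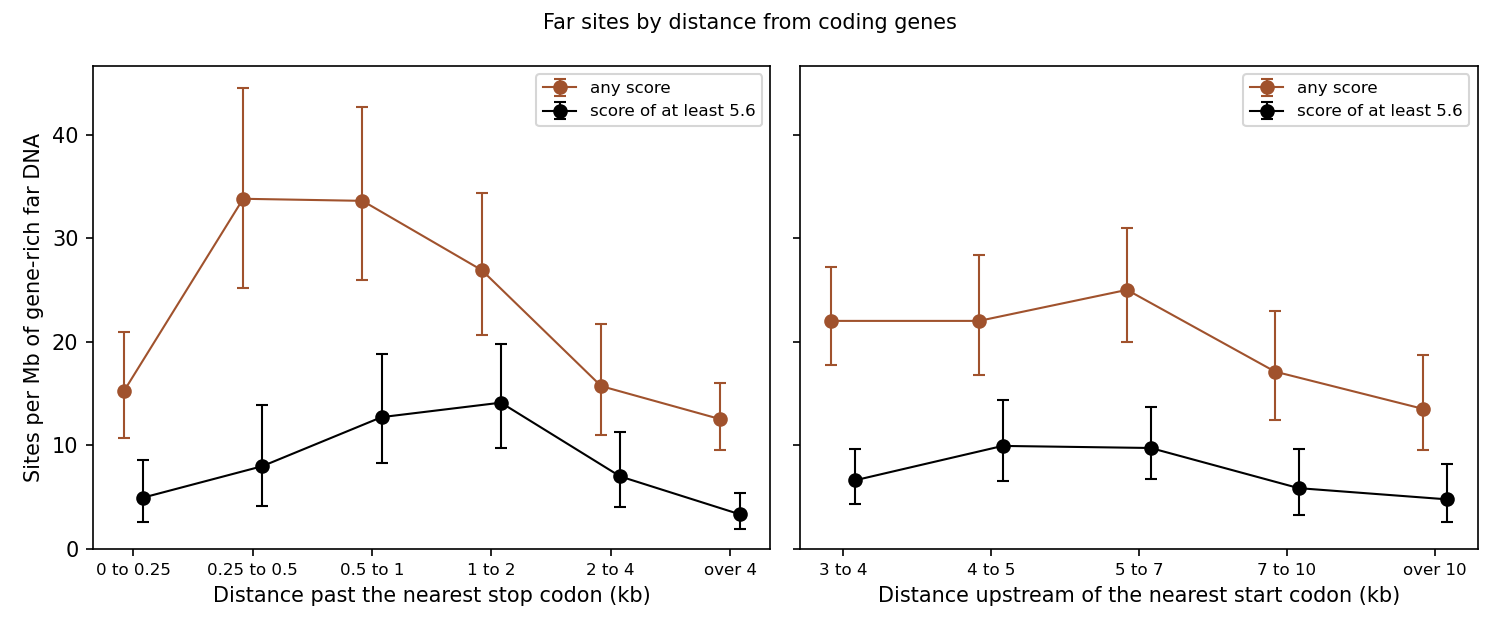
Far sites per Mb of gene-rich far DNA by distance past the nearest stop codon (left) and upstream of the nearest start codon (right), for any score and for at least 5.6; error bars are exact Poisson 95% intervals. The left panel peaks at 33.8 per Mb from 0.25 to 0.5 kb for any score and at 14.1 from 1 to 2 kb for at least 5.6.

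Non-coding RNA genes held more far sites for their length than intergenic DNA. In gene-rich far DNA there were 53.1 per Mb (35.0 to 77.3) in non-coding RNA genes, against 20.9 (18.1 to 24.0) in intergenic DNA. For scores of at least 5.6 the densities were 25.6 (13.6 to 43.7) and 7.64 (5.98 to 9.63), and in neither case did the intervals overlap. The 27 sites rest on 0.508 Mb of gene-rich DNA, and this comparison has no replicate behind it. Of the 27, 20 lay over genes annotated as lncRNA, 4 over genes annotated as misc_RNA, 2 over ncRNA genes and 1 over an snRNA gene. Besides the 4 with scores from 19.85 to 37.78 named above, a site of 11.03 lay over AT3G04325, 3625 bp upstream of the meiotic recombinase gene DMC1, and one of 9.55 over AT3G05305, 3585 bp upstream of MYB21, a MYB gene that acts in stamens. A site of 6.81 lay over the non-coding RNA gene AT4G36648, and 1 of 4.69 over AT2G18440. No far site had its maximum over an annotated tRNA, miRNA or rRNA gene, although 7 had a tRNA gene and 4 a miRNA gene within 500 bp. These were 1.96% (0.950 to 3.98) and 1.12% (0.435 to 2.84), against 1.26% (0.890 to 1.78) and 0.122% (0.0415 to 0.358) of the other sites. A long non-coding RNA gene lay within 500 bp of 33 far sites, or 9.22% (6.64 to 12.7). Among the other sites the share was 6.31% (5.41 to 7.34), and these intervals overlapped.

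The other classes were closer to intergenic DNA or below it. In gene-rich far DNA, 3′ UTRs held 23.1 sites per Mb (17.6 to 29.8) and 5.87 (3.29 to 9.69) of at least 5.6, and pseudogenes held 9.39 (6.14 to 13.8) and 3.61 (1.73 to 6.65). The pseudogene interval for any score did not overlap that of intergenic DNA, 18.1 to 24.0. Of the 46 pseudogene sites, 15 lay over genes annotated as transcribed pseudogenes.

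Some stretches between coding genes held several far sites. The 358 far sites fell into 305 such stretches, of which 271 held 1 site, 34 held at least 2 and 8 held at least 3. Between MST1, a mercaptopyruvate sulfurtransferase gene, and the kinase gene AGC1.7 on chromosome 1, all 7 sites lay over the transcribed pseudogene AT1G79245, with scores of 6.7, 4.43, 9.12, 4.9, 6.81, 3.4 and 14.22 from the MST1 side. Between ERF4 and AT3G15220 on chromosome 3, the 5 sites scored 31.29, 11.03, 4.43, 8.14 and 5.28 with distance from the ERF4 stop codon, and the fourth held the CArG box shown above. The highest of them stood closest to ERF4.

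At IMS2 the site of 40.02 was followed by one of 14.22 at 1759 bp past the stop codon. At LOG8 a site of 12.68 in its 3′ UTR, 311 bp past the stop codon, came before the one of 19.45. Upstream of KNAT3 sites of 3.4 and 5.57 accompanied the one of 25.16. Upstream of SPT (SPATULA), a bHLH gene of carpel development, sites of 4.43, 17.65 and 3.0 lay at 9071, 5251 and 3690 bp. A second listed site lay within 1000 bp of 51 of the far sites, 14.2% (11.0 to 18.2), and of 15.9% (14.6 to 17.4) of the other sites, and these intervals overlapped.

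**Figure D4:**
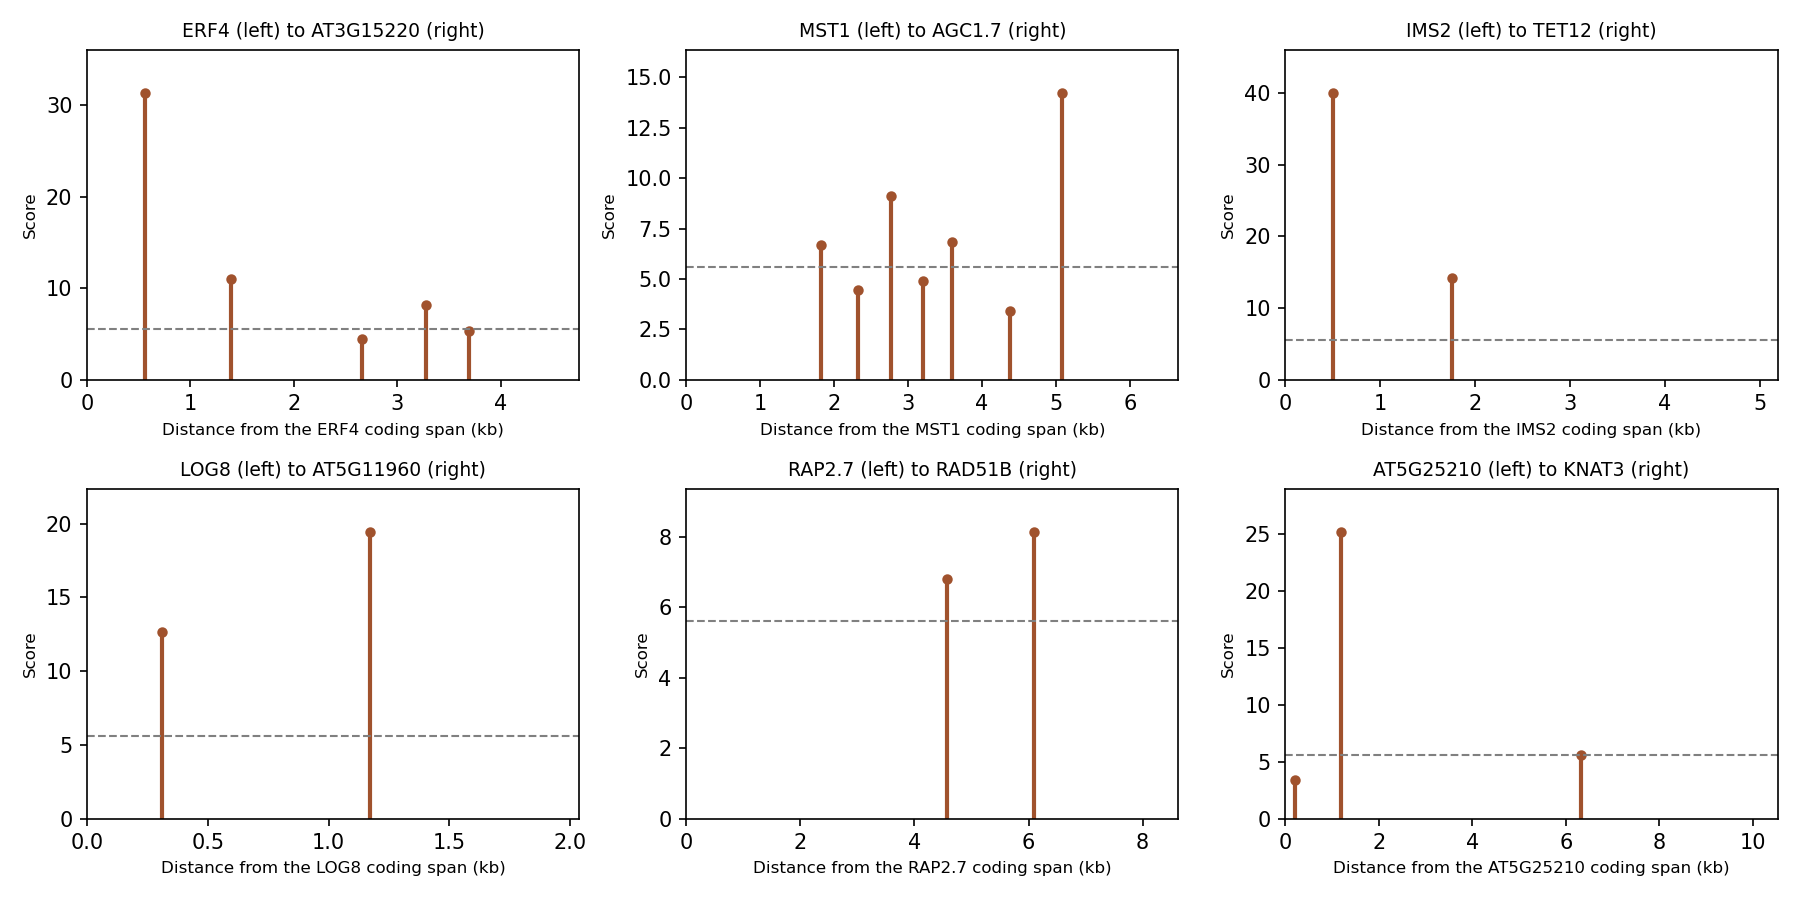
Scores of the far sites in 6 stretches between neighbouring coding genes, by distance in kb from the coding span of the left gene; each panel runs from the left to the right coding span and the dashed line is the score limit of 5.6. The ERF4 stretch holds 5 sites with the highest, 31.29, next to ERF4, and the MST1 stretch holds 7 with the highest, 14.22, toward AGC1.7.

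An exact CArG box lay within 100 bp of the maximum in 15 of the 358 far sites, or 4.19% (2.56 to 6.80). The share among all sites outside the cluster was 4.76%, and among the other sites 4.84% (4.06 to 5.76). In consecutive 201 bp windows of far DNA, the share with a box was 1.20% of 141814 windows, and in gene-rich far DNA 1.32%. The far sites thus held a box more often than the DNA they lie in, and about as often as the other sites. Among sites of at least 5.6 it was 9 of 125 far sites, or 7.20% (3.83 to 13.1), against 9.77% (7.80 to 12.2) of the other sites, and below 5.6 it was 2.58% (1.19 to 5.50) against 2.85% (2.17 to 3.74). In the far sites there were 0.307 boxes per kb within 50 bp of the maximum, 0.168 between 50 and 100 bp, 0.251 between 100 and 150 bp and 0.112 between 150 and 200 bp, from 11, 6, 9 and 4 matches, against 0.0631 per kb over all far DNA. The decline was thus uneven and rested on few matches. The other sites had 0.330, 0.175, 0.0936 and 0.0936 per kb. When 1 mismatch was allowed, 36.0% of the far sites and 31.7% of the other sites held a box. Most far sites, even of high score, had no exact box, which says only that these letters are not in this window.

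The G-box and GGNCCC, searched on both strands, were more common than the CArG box in the far sites, and also in far DNA as a whole. GGNCCC reads GGGNCC on the other strand, and the 2 forms coincide at GGGCCC, while CACGTG is its own complement. CACGTG lay within 100 bp of 50 far sites, or 14.0% (10.8 to 17.9), against 13.1% (11.8 to 14.4) of the other sites, 1.76% of far DNA windows and 2.06% of gene-rich far DNA windows. GGNCCC lay in 64, or 17.9% (14.3 to 22.2), against 14.3% (13.0 to 15.8) of the other sites, 5.22% of far DNA windows and 4.70% of gene-rich far DNA windows. At the limit of 5.6, CACGTG was found in 24 of 125 far sites, or 19.2% (13.3 to 27.0), and GGNCCC in 30, or 24.0% (17.4 to 32.2). Among the other sites at the limit the shares were 17.7% (15.1 to 20.7) and 17.1% (14.5 to 20.1). In the far sites of at least 5.6, 16 held CACGTG alone, 22 GGNCCC alone and 8 both, so that 46 of 125 held at least 1 of them. With the CArG box added, 51 of 125, or 40.8% (32.6 to 49.6), held at least 1 of the 3 motifs.

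For sites of any score, both motifs thinned out within 200 bp of the maximum. CACGTG stood at 1.03 matches per kb within 50 bp of the far maxima, at 0.419 per kb between 150 and 200 bp, and at 0.0961 over all far DNA. GGNCCC stood at 1.26, 0.894 and 0.313. In the far sites of at least 5.6, however, GGNCCC was not highest at the maximum, with 1.28 per kb within 50 bp and 1.92, 1.52 and 1.36 in the next bins out to 200 bp. GAGAGAGA, bound by GAGA-binding BPC proteins, lay in 4.47% (2.77 to 7.14) of the far and 7.00% (6.05 to 8.07) of the other sites. It lay in 2.13% of far DNA windows and 2.27% of gene-rich far DNA windows, both below the far-site interval. The telobox AAACCCTA lay in 1.96% (0.950 to 3.98) of the far and 3.50% (2.84 to 4.30) of the other sites. It lay in 2.99% of far DNA windows, so it was no more common in far sites than around them. The median GC content was 38.3% in the far windows, 41.3% in those of the other sites and 34.8% in far DNA. Far windows thus stood above far DNA in GC content as in CACGTG and GGNCCC, and below the other sites in GC content but not in these motifs. The part of GC content was not tested.

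**Figure D5:**
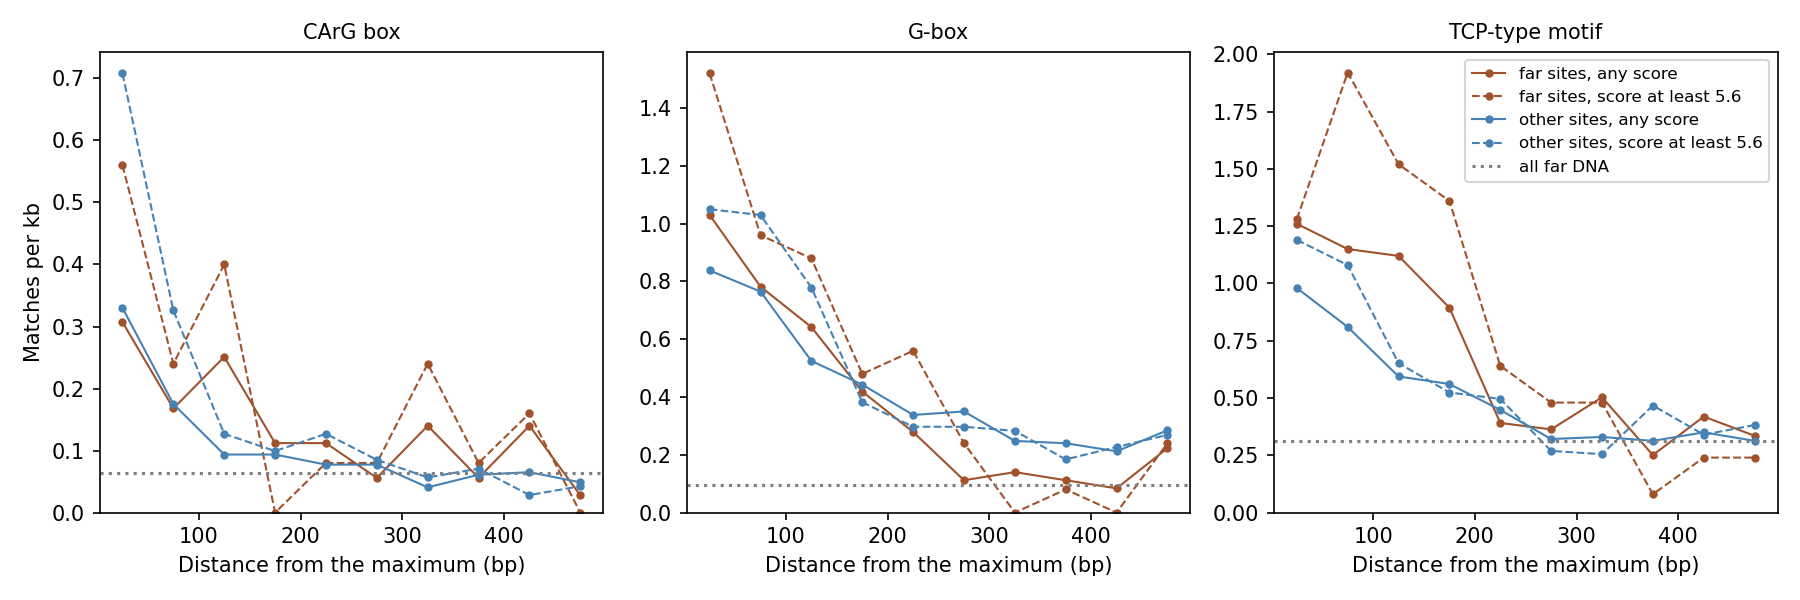
Matches per kb of the CArG box, the G-box and the TCP-type motif by distance from the site maximum in bins of 50 bp; solid lines are sites of any score, dashed lines sites of at least 5.6 and dotted lines the mean over all far DNA. All 3 motifs are above far DNA within 50 bp of the far maxima, with 0.307, 1.03 and 1.26 matches per kb for any score.

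Transcription factor words were found beside far sites and other sites in shares whose intervals overlapped. For 51 of the 358 sites, or 14.2% (11.0 to 18.2), the RefSeq description of the nearest coding gene held a transcription factor word, against 11.9% (10.7 to 13.3) of the other sites, 12.2% of all sites outside the cluster and 6.62% of all 27444 protein-coding genes. At the limit of 5.6 the shares were 16.0% (10.6 to 23.4) and 14.6% (12.2 to 17.4) of the far and other sites. A hormone word was found for 22, or 6.15% (4.09 to 9.13), against 7.97% (6.97 to 9.11) and 3.05%. The single words were few, with 7 sites for auxin, 6 for ethylene, 5 for abscisic, 2 each for gibberellin, cytokinin and jasmonate, and 1 for salicylic. Brassinosteroid was found for 0 of the 358, with a Wilson upper limit of 1.06%, against 0.529% (0.309 to 0.903) of the other sites. Auxin stood at 1.96% (0.950 to 3.98) against 2.69% (2.12 to 3.40). For every single hormone word the intervals of far and other sites overlapped. Besides those above, a site of 15.90 lay 1514 bp past the stop codon of PAP1 (AT1G56650), a MYB gene of anthocyanin synthesis, another of 15.90 lay 844 bp past NAC3, one of 11.03 lay 614 bp past TCP4, a leaf growth regulator gene, and one of 8.14 lay 3281 bp upstream of ARF6, an auxin response factor gene of flower maturation. The abscisic acid synthesis gene NCED3 had a site of 6.43 at 7693 bp upstream and one of 3.40 at 2435 bp past its stop codon.

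Other genes of the transcription factor list had low-scoring far sites, with 4.43 past the floral boundary gene SUP, 4.43 upstream of the ovule gene BEL1, 3.40 past JAG, which promotes organ growth, and 3.40 upstream of the MADS-box gene AGL44. The gibberellin oxidase genes GA2OX2 and GA20OX3 had sites of 4.43, and the auxin influx carrier gene AUX1 had sites of 3.40 on both sides. All the sites named in this paragraph scored below 5.6. The list gives nothing on whether any of these genes responds to FUL.

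The 45 far sites in gene-poor DNA differed from the rest in several measured ways. The sequence within 100 bp of the maximum had more than 1 copy in the genome, at 95% identity over 80% of its length, in 21 of 45, or 46.7% (32.9 to 60.9), against 5 of 313, or 1.60% (0.684 to 3.68), of the far sites in gene-rich DNA. Of the 45, 20 lay in annotated pseudogenes, 44.4% (30.9 to 58.8) against 8.31% (5.73 to 11.9). Pseudogenes made up 30.3% of all far DNA, and their share of gene-poor far DNA alone is not given here. The 20 therefore cannot be read as more than that DNA holds. A length under 50 bp was listed for 26, 57.8% (43.3 to 71.0) against 23.6% (19.3 to 28.7). A score of at least 5.6 was reached by 11, 24.4% (14.2 to 38.7) against 36.4% (31.3 to 41.9), and these intervals overlapped. The site of 35.58 in the 3′ UTR of AT1G35780, among the highest of all far sites, was among these 11 and had 1 copy. CACGTG was found in 0 of 45, for which the Wilson upper limit is 7.87%, and GGNCCC in 3, or 6.67% (2.29 to 17.9). Over all far DNA windows the shares were 1.76% and 5.22%, and both lie within these limits. The authors kept only reads with a unique match, and the part of repeated sequence in the low density and the short lengths was not tested. The site farthest from any coding start codon, at 130783 bp, lay on chromosome 5 between AT5G30520 and AT5G32440, scored 4.43 and had 3 copies. That stretch held 7 far sites, none above 4.5. On chromosome 4, between AT4G05632 and AT4G06479, 4 sites scored 14.9, 12.52, 10.48 and 10.26. At the first of these 82 of the 201 bases around the maximum are unknown in the reference.

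In the ribosomal RNA cluster of chromosome 3 (chr3:14194339-14202851) 15 sites were listed, with scores from 6.0 to 1071.13, among them the 6 highest of the whole list. Of these 15, 7 met the far rule, and their scores were 6.81, 649.94, 256.8, 681.07, 1071.13, 335.76 and 279.73 along the chromosome. The other 8 were left out by the rule because they lay in the coding span of AT3G41762 or within 3000 bp upstream of its start codon. The highest site of the list, 1071.13, lay over the misc_RNA gene AT3G06365, and the site of 649.94 over the lncRNA gene AT3G06355. Every window of the cluster had between 2 and 5 copies in the genome. A CArG box lay within 100 bp of 1 of the 7. The scores of the 7, with a median of 335.76, stood far above the 40.02 of the highest far site outside the cluster, with the exception of the one of 6.81. The part of these copies in the scores was not tested.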

How the data were processed

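DNA bound by FUL-GFP in pistils and siliques was sequenced in 2 ChIP replicates beside 2 input libraries. SOAPv2 was used by the authors for mapping to TAIR9 (the build in the submitters' processing notes), with up to 2 mismatches and without gaps, and only unique nuclear matches were kept. CSAR then scored the ChIP reads against the input. Versions of these tools are not given in the sources used here. The deposited list holds a CSAR score, a length and the position of the maximum for each of 2831 sites, both replicates combined by the authors. The score limit of 5.6 is the lowest score in the study's supplementary site table. No per-sample column was present or left unused.

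Coordinates are those of the list, counted from 1. Genes and sequences come from RefSeq's TAIR10.1, whose nuclear chromosomes have the TAIR9 sequence, and all 2831 site ends lay within its chromosome lengths. A base was far when it lay in no coding span and not within 3000 bp upstream of a start codon of any of 27444 protein-coding genes. Annotation at the maximum was assigned in the order UTR exon, UTR intron, non-coding RNA gene, pseudogene, intergenic. Motifs were searched on both strands within 100 bp of the maximum. The CArG box was matched exactly. Copies were counted with BLAST 2.17.0+ at 95% identity over 80% of the window. Shares have Wilson, densities exact Poisson and medians order-statistic 95% intervals. Intervals and figures were made in Python 3.11.15 with scipy 1.17.1, pandas 2.3.3, matplotlib 3.10.9 and numpy 2.4.6. The CArG box search was tested on random sequences with planted boxes, and the searches for the other motifs were not. The far rule was tested against a direct check at random positions of the real annotation. The sites named are the 15 highest far sites with ties, those of at least 5.6 with a CArG box, the highest of each annotation class, the farthest, and the genes beside them. Others named were chosen after their values were seen. One site that this rule names is not reported here. The members, the motifs and the gene lists were chosen with earlier results of these data known. The labels give soil and the methods rockwool as the growth substrate, and no batches are named. The alternatives tried are given in the closing section.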

Additional observations from a re-analysis of the deposited data

How the results depend on the processing

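No paired analysis was possible because the list holds 1 combined score per site, and for the same reason the planned fits without a replicate or with a replicate block were not run. Of the 66 alternatives, 44 stayed within the main value's interval, or for the number of sites within 1.5 times of it, and 22 did not. The median score of 4.43 and the share at the score limit did not move under any alternative run. With an upstream limit of 2000 bp the share of far sites was 17.9% and the density 14.3 per Mb. With 5000 bp there were 207 far sites, a share of 7.35% and 9.78 per Mb. When genes of all types were counted, the far sites fell to 202, their share was 7.17%, their density 17.4 per Mb, and 54.5% lay close to a stop codon. With scores of at least 5.6 there were 125 far sites, 15.0% of the sites, 4.35 per Mb, and 7.20% had a CArG box. With scores of at least the upper quartile these were 116, 15.7%, 4.04 per Mb and 7.76%. The CArG share was 2.51% in a window of 50 bp, 8.66% in 250 bp and 36.0% with 1 mismatch. The share close to a stop codon was 25.1% within 500 bp and 61.7% within 2000 bp. The cause was not tested. The midpoint of the site, the demand that every base be far, the inclusion of the ribosomal RNA cluster and the merging of sites within 500 bp moved no value beyond its interval. Counting error of sites limits the small classes most, such as the 27 sites in non-coding RNA genes and the 9 with a CArG box at the limit.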
